A study of Mus musculus with 7 samples.

Results

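The genes described here are 9 epithelial junction genes of the mouse mammary gland, namely the claudins Cldn1, Cldn3, Cldn4, Cldn7 and Cldn8, occludin (Ocln), Tjp1, E-cadherin (Cdh1) and Epcam. They were chosen by name, and each was found on the array through the RefSeq accession of its probe, 1 probe for each gene. They are 9 of 13971 genes that could be named on the array in this way.

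Epithelial cells of the mammary ducts and alveoli are joined near their apical face by tight junctions, which seal the space between cells, and just below them by adherens junctions, which hold the cells together. Claudins and occludin are the membrane proteins of the tight junction, Tjp1 (ZO-1) is the scaffold that ties them to actin, Cdh1 is the adhesion molecule of the adherens junction, and Epcam is an epithelial surface protein that associates with Cldn7. Luminal mammary epithelium is known for high expression of Cldn3, Cldn4, Cldn7, Cdh1 and Epcam, and tight junctions of this gland close when milk secretion starts.

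RNA was measured from whole mammary glands of 4-week-old mice, kept in organ culture as thoracic glands on silk rafts, with 1 array for each of 7 groups. The αERKO array (Esr1 knockout) and the array labelled βERKO (Esr2 knockout) came from mice on a C57BL6/129SV background after 24 days of culture. Another group, here called WT with DMBA, was wild-type C57 glands after 24 days with DMBA (7,12-dimethylbenz(a)anthracene, a carcinogen). Wild-type C57 glands without DMBA were measured after 10 and after 24 days, and BALB/c wild-type glands after 24 days, with and without vitamin D5. Titles name DMBA for 1 array and no DMBA for the others of C57 mice, and do not state it for the knockout or BALB/c arrays. The study's methods describe DMBA at 2 µg/ml on Day 3 for 24 h for the knockout groups also, and no dose of vitamin D5 is given in the sources used here. All mice were treated with hormones before culture, for 9 days with estrogen (1 µg) and progesterone (1 mg) according to the labels. The study's text on its arrays of wild-type, αERKO and βERKO glands instead gives 5 days with EGF (25 ng) and progesterone (1 mg). If the other groups were pretreated otherwise, pretreatment would differ together with DMBA or genotype in comparisons with them. Growth took 10 days with insulin, prolactin, aldosterone and hydrocortisone, and regression 14 days with insulin. RNA of 5 mice was pooled for each of the αERKO, βERKO and WT with DMBA groups. The methods name αERKO as a group taken for arrays, but elsewhere say that these glands, which had no lesions, gave no material for molecular work. Both deletions were present in the whole animal, strain and genotype cannot be told apart, and a group is 1 array, so no difference below has a replicate check and no test was run.

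A level is the log2 of a spot's intensity over the median of the 34967 gene probes on its array, so that 0 is the array's median. Probes differ in how brightly they bind, and levels were therefore compared between arrays and not between genes. The scanner software called between 68.4% and 74.2% of gene probes good on an array, and median intensity lay between 39.1 and 53.0 over a local background between 80 and 83. The Esr1 probe was good only on WT with DMBA, at -1.02, and on BALB/c with vitamin D5, at -0.74, and was at least 1.36-fold dimmer on the αERKO array than on WT with DMBA. The Esr2 probe was good only on the array labelled βERKO, at 0.87, and on WT at 24 days without DMBA, at -0.55. On the array labelled βERKO it exceeded WT with DMBA by at least 6.69-fold, which goes against the label. WT with DMBA, near background, was the lowest array for this probe. The part of each gene that was deleted was not set against the probes.

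Among the claudins, Cldn3 had a level of 5.07 on αERKO, 6.84 on the array labelled βERKO, 6.18 on WT with DMBA, 7.38 on WT at 10 days, 7.52 on WT at 24 days without DMBA, 6.98 on BALB/c and 7.10 on BALB/c with vitamin D5. Cldn4 had levels of 4.90, 6.62, 4.88, 6.83, 7.58, 6.46 and 6.31 in the same order. Both are sealing claudins of the luminal epithelium, and their genes are neighbours on chromosome 5 with 0 genes between them in the RefSeq table. αERKO and WT with DMBA were the lowest arrays for both. They differed in one respect: Cldn4 was as low on WT with DMBA as on αERKO, whereas Cldn3 on WT with DMBA lay 1.11 above αERKO.

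Cldn7, the claudin found along the lateral membrane and the partner of Epcam, had levels of 4.02 on αERKO, 6.15 on the array labelled βERKO, 5.37 on WT with DMBA, 6.65 on WT at 10 days, 6.92 on WT at 24 days, 6.26 on BALB/c and 6.72 on BALB/c with vitamin D5. Cldn1, a barrier claudin best known from skin, had levels of -0.11, 2.35, 1.503, 3.18, 2.96, 2.19 and 3.34 in that order. Its spot on WT with DMBA was called neither good nor near background, and its range of 3.45 over the 7 arrays exceeded that of each other member. For both genes αERKO was lowest and WT with DMBA next.

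Cldn8, a claudin of tight epithelia such as the collecting duct, was a dim probe, with levels of -0.06 on αERKO, -0.83 on the array labelled βERKO, -0.38 on WT with DMBA, -0.97 on WT at 10 days, -0.64 on WT at 24 days and 0.16 on BALB/c with vitamin D5. On BALB/c it was near background, at -1.16. It did not follow the other claudins: αERKO was its second highest array and BALB/c with vitamin D5 its highest.

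Ocln, the other transmembrane protein of the tight junction, followed the claudins, with levels of 2.03 on αERKO, 4.00 on the array labelled βERKO, 3.11 on WT with DMBA, 4.42 on WT at 10 days, 4.71 on WT at 24 days, 3.63 on BALB/c and 4.27 on BALB/c with vitamin D5. Its cytoplasmic partner Tjp1 had levels of 5.06, 5.17, 5.12, 5.20, 5.38, 4.87 and 5.13 in that order. Tjp1 is made by endothelial and stromal cells as well as by epithelium, and its levels spanned 0.52 over the arrays while those of Ocln spanned 2.67.

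Cdh1 had levels of 3.47 on αERKO, 4.59 on the array labelled βERKO, 4.47 on WT with DMBA, 5.20 on WT at 10 days, 5.20 on WT at 24 days, 4.49 on BALB/c and 5.05 on BALB/c with vitamin D5. Epcam had levels of 6.29, 7.33, 6.98, 7.62, 7.61, 7.19 and 7.72 in that order. αERKO was the lowest array for both of these adhesion molecules, by 0.999 for Cdh1 and by 0.69 for Epcam.

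**Figure D1:**
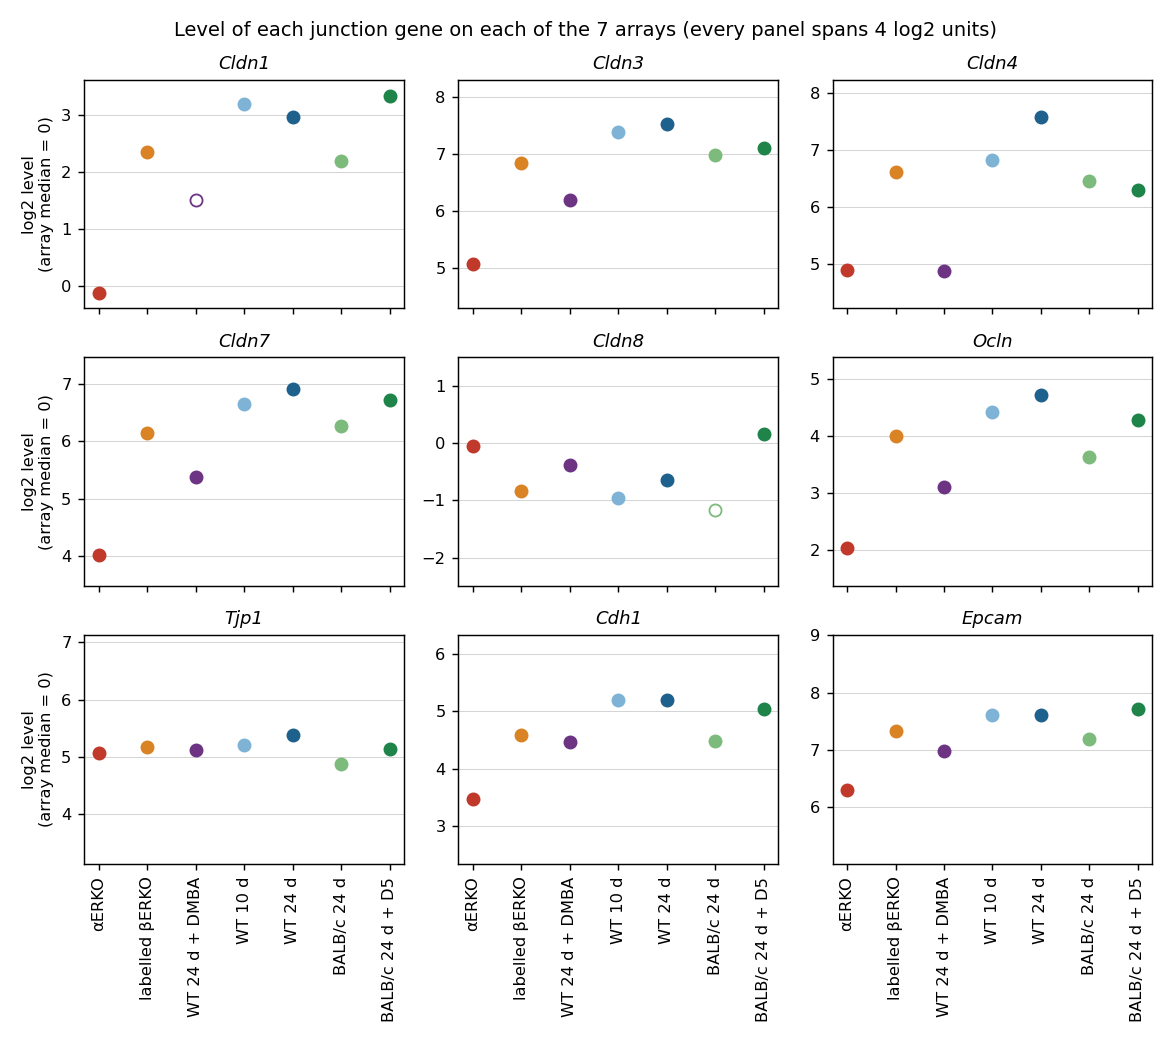
Level of each of the 9 genes on each of the 7 arrays, as log2 of intensity over the array's median; each point is 1 array of 1 group, open where the spot was not called good, with no error bars, since no group has another array. αERKO is the lowest point for 6 of the 9 genes, the panels of Tjp1 and Cldn8 do not show that order, and the range of Cldn1 is 3.45.

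αERKO was the lowest array for 6 of the 9 genes, WT with DMBA for Cldn4, and BALB/c for Cldn8 and Tjp1. WT at 24 days without DMBA was highest for 6 genes and BALB/c with vitamin D5 for the other 3, Cldn1, Cldn8 and Epcam. The only spread that these data offer is that between probes of the same gene, whose log2 ratios between 2 arrays had an SD of 0.20 to 0.71 over the 21 pairs of arrays. It holds no variation between glands, cultures or hybridizations, so a step that exceeds it is not shown to exceed experimental error. When the 7 arrays were put in order of level, 3 of the 6 steps between neighbours exceeded this SD for each of Cldn1, Cldn3, Cldn7 and Ocln, 2 for Cldn4 and Cdh1, 1 for Epcam and 0 for Cldn8 and Tjp1. The step from αERKO to WT with DMBA exceeded it for Cldn1, Cldn3, Cldn7, Ocln, Cdh1 and Epcam.

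These 6 genes had Pearson correlations of 0.955 to 0.997 over their 15 pairs on the 7 arrays, and of 0.835 to 0.991 without αERKO. They were picked by their step from αERKO to WT with DMBA on the same arrays. Part of their correlation over all 7 arrays therefore follows from that choice. High values were also common among 9331 genes good on all arrays. The share of these above 0.9 was 9.90% for Epcam and 13.1% for Ocln. The 6 genes share the gland, the array and its scaling at each of the 7 points. Cldn4 correlated less closely with them, Tjp1 had correlations of 0.14 to 0.53 with the other 8 members, and Cldn8 of -0.50 to 0.14. The correlations describe 7 arrays of unlike groups.

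The first comparison was of wild-type C57 glands with and without DMBA, both after 24 days of culture. By the study's text their pretreatment may also have differed. Cldn4, Ocln, Cldn7, Cldn1 and Cldn3 were over 2-fold lower with DMBA, whereas Cdh1, Epcam, Tjp1 and Cldn8 were within 2-fold. These are 5 of 9 members, where 7.79% of 12150 genes were over 2-fold lower and 11.6% higher. Cldn4 was 6.48-fold lower, Ocln 3.03-fold, Cldn7 2.92-fold, Cldn1 2.75-fold and Cldn3 2.52-fold. The log2 ratio was -0.74 for Cdh1, -0.63 for Epcam, -0.26 for Tjp1 and 0.25 for Cldn8. The ratios of these 5 genes were thus all further from 0 than those of the adhesion molecules Cdh1 and Epcam, and the median over the 9 genes was -1.34 against -0.15 over all genes. Beside this, all 7 of 7 stromal markers were over 2-fold higher with DMBA, their median log2 ratio being 3.80, as were 6 of 6 endothelial and 4 of 6 adipocyte markers, and 3 of 4 luminal keratins were over 2-fold lower. In whole glands, fewer cells of a type and less RNA per cell cannot be told apart, and the part of these cell types in the differences was not tested.

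The question of the αERKO comparison was how glands without ERα differ from wild-type glands after 24 days. Against WT with DMBA, Cldn7 was 2.57-fold lower, Cldn3 2.16-fold and Ocln 2.11-fold. Cldn1 was 3.06-fold lower, but its spot on WT with DMBA was not called good, and with normexp background correction its log2 ratio went from -1.61 to -0.97, inside 2-fold. So 4 of 9 members were over 2-fold lower, where 15.2% of 12189 genes were lower and 10.2% higher. Cdh1, with a log2 ratio of -0.999, lay just inside 2-fold, Epcam was at -0.69, Tjp1 at -0.06, Cldn4 at 0.01 and Cldn8 at 0.32. Cldn4 was the exception among the claudins of luminal epithelium, being equally low on both arrays. The median over the 9 genes was -0.999, against -0.17 over all genes. With the 75th percentile of each array or cyclic loess as scaling, 2 of 9 members were over 2-fold lower.

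The WT array with DMBA was itself low in these genes, and the αERKO array was therefore also set against WT at 24 days without DMBA, a choice made after the data were seen. There 7 of 9 members were over 2-fold lower, where 24.2% of 12141 genes were lower and 15.8% higher and the median over all genes was -0.31, with log2 ratios of -3.07 for Cldn1, -2.91 for Cldn7, -2.68 for Cldn4, -2.67 for Ocln, -2.45 for Cldn3, -1.74 for Cdh1 and -1.32 for Epcam. Tjp1 was at -0.32 and Cldn8 at 0.58. By the methods the knockout glands had DMBA, so this comparison changes DMBA, genotype and strain together, and their parts cannot be told apart. WT at 24 days without DMBA was also the highest array for 6 of the 9 genes. The αERKO array held other tissue as well: all 8 of 8 skeletal muscle markers were over 2-fold higher there than on WT with DMBA, with a median log2 ratio of 8.12, and 5 of 7 lymphocyte markers were, with a median of 4.02. All 4 milk protein genes measured were over 2-fold lower, with a median of -3.52 when the 2 whose spots were near background on αERKO were set to their bound. The 4 luminal keratins had a median of 0.07, but Krt8 among them was at -1.65. Of the basal markers, Krt17 was 7.50-fold lower, Krt14 5.37-fold, Acta2 2.99-fold, Krt5 2.41-fold and Trp63 2.11-fold, while Myh11 had a log2 ratio of -0.38. The part of muscle and lymphocyte RNA in the lower junction genes was not tested.

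Against the same WT array, the array labelled βERKO was higher for 8 of 9 members. Only Cldn4 passed 2-fold, at 3.34-fold, where 6.62% of 12077 genes were over 2-fold higher and 7.29% lower. The log2 ratio was 0.89 for Ocln, 0.84 for Cldn1, 0.77 for Cldn7, 0.65 for Cldn3, 0.35 for Epcam, 0.13 for Cdh1, 0.05 for Tjp1 and -0.45 for Cldn8. The median was 0.65 against 0.14 over all genes. Against WT at 24 days without DMBA, in contrast, all 9 genes were lower on the array labelled βERKO, none over 2-fold, where 4.52% of 11934 genes were over 2-fold lower and 8.87% higher. The median was -0.61 against -0.03 over all genes, so the direction depended on which wild-type array was used. By the methods, DMBA differs as well as genotype and strain between the array labelled βERKO and WT without DMBA. Stromal markers went the other way from the junction genes, 6 of 7 being over 2-fold lower than on WT with DMBA, with a median of -1.88, and 5 of 6 endothelial markers were lower.

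Both knockout arrays came from the same strain background. αERKO was over 2-fold lower than the array labelled βERKO in 7 of 9 members, where 20.2% of 12006 genes were lower and 11.8% higher. Cldn1 was 5.49-fold lower, Cldn7 4.39-fold, Ocln 3.91-fold, Cldn3 3.40-fold, Cldn4 3.30-fold, Cdh1 2.19-fold and Epcam 2.06-fold. Tjp1 had a log2 ratio of -0.11 and Cldn8 of 0.78. The median was -1.72 against -0.30 over all genes, and 8 of 8 muscle markers were over 2-fold higher on αERKO, with a median of 5.94. So were 7 of 7 stromal markers, with a median of 1.93, 5 of 7 lymphocyte and 4 of 6 endothelial markers, and their part in the lower junction genes was not tested.

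Culture time was read from 1 array at each time. Between 10 and 24 days without DMBA, a span in which the growth hormones other than insulin were withdrawn, 0 of 9 members passed 2-fold in either direction, where 5.47% of 11887 genes were higher and 4.34% lower. At such shares a count of 0 among 9 genes does not set them apart from other genes. Cldn4 had the largest log2 ratio, 0.75, where the SD between probes of the same gene was 0.25. Cdh1 and Epcam had ratios of 0.00 and -0.01. Over the same span 5 of 6 adipocyte markers were over 2-fold higher and 4 of 6 basal markers over 2-fold lower. The basal markers Myh11 and Acta2 went the other way, with log2 ratios of 1.00 and 0.21.

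In BALB/c glands with vitamin D5, an analogue of vitamin D, Cldn1 was 2.22-fold higher and Cldn8 at least 2.50-fold higher, its spot being near background without vitamin D5. These are 2 of 9 members, where 4.41% of 12177 genes were over 2-fold higher and 4.39% lower. Ocln had a log2 ratio of 0.64, Cdh1 of 0.56, Epcam of 0.53, Cldn7 of 0.46, Tjp1 of 0.26, Cldn3 of 0.12 and Cldn4 of -0.15. With normexp background correction Cldn8 was no longer over 2-fold, at 0.53. Relative to the luminal keratins, whose median log2 ratio was 0.54, 0 of 9 members passed 2-fold and their median was 0.0052. Markers of squamous epithelium moved with Cldn1, 4 of 6 being over 2-fold higher with vitamin D5 with a median of 1.21, and all 4 milk protein genes were over 2-fold higher.

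BALB/c glands without vitamin D5 were lower than WT glands at 24 days without DMBA in all 9 genes, but the DMBA treatment of BALB/c glands is not stated. Cldn4 was 2.16-fold and Ocln 2.11-fold lower, which makes 2 of 9, where 12.2% of 12113 genes were over 2-fold lower and 6.22% higher. The other 7 ratios lay between -0.78 and -0.42, and the median was -0.66 against -0.31 over all genes. Under the 75th percentile, quantile or cyclic loess scaling, 0 of 9 passed 2-fold, and relative to the luminal keratins 0 of 9 did and the median turned to 0.14. Krt8 was 2.75-fold and Krt7 2.30-fold lower in BALB/c glands, and 5 of 6 adipocyte markers were over 2-fold lower. Of 7 genes of dividing cells 4 were over 2-fold higher, Cdk1 by 12.2-fold and Top2a by 7.33-fold among them.

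**Figure D2:**
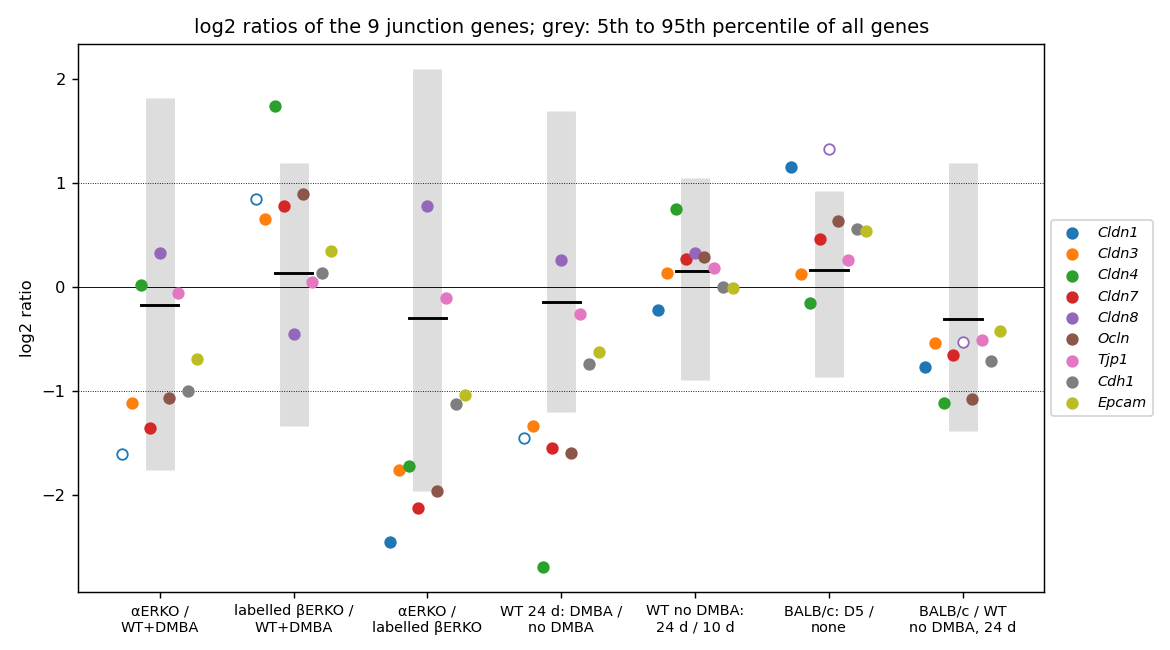
Log2 ratio of each of the 9 genes in each of the 7 comparisons; each point is the ratio of 1 array to 1 array, and the lines at -1 and 1 mark 2-fold. Cldn1, Cldn3, Cldn7 and Ocln lie beyond -1 in the 3 comparisons of αERKO with WT with DMBA, of αERKO with the array labelled βERKO and of DMBA with no DMBA, Cldn4 lies at 0.01 in the first of these, and no gene passes 2-fold between 10 and 24 days.

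Keratins of luminal cells give another base on which the junction genes can be read. The mean of Krt7, Krt8, Krt18 and Krt19 was lower than on WT at 24 days without DMBA by 1.06 on the log2 scale on αERKO, by 0.36 on the array labelled βERKO, by 0.90 on WT with DMBA, by 0.36 on WT at 10 days, by 0.80 on BALB/c and by 0.27 on BALB/c with vitamin D5. The keratins did not move as one, since Krt8 was at 2.96 on αERKO and between 4.19 and 5.64 elsewhere, whereas Krt19 lay between 6.40 and 7.04 on all arrays. Relative to their mean and to WT at 24 days without DMBA, αERKO stayed lower by 2.01 for Cldn1, by 1.85 for Cldn7, by 1.62 for Cldn4 and for Ocln, and by 1.39 for Cldn3. Cdh1 was lower by 0.68 and Epcam by 0.26, whereas Tjp1 was higher by 0.74 and Cldn8 by 1.64. Here too, by the methods, DMBA, genotype and strain differ together between αERKO and WT at 24 days without DMBA. On WT with DMBA, Cldn4 stayed lower by 1.79, Ocln by 0.69, Cldn7 by 0.64, Cldn1 by 0.55 and Cldn3 by 0.43, while Cdh1 was higher by 0.17, Epcam by 0.28, Tjp1 by 0.64 and Cldn8 by 1.16. On this base Cldn1, Cldn3, Cldn4, Cldn7 and Ocln were over 2-fold lower on αERKO and Cldn8 over 2-fold higher, Cdh1, Epcam and Tjp1 were within 2-fold, and with DMBA Cldn4 was over 2-fold lower and Cldn8 over 2-fold higher.

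**Figure D3:**
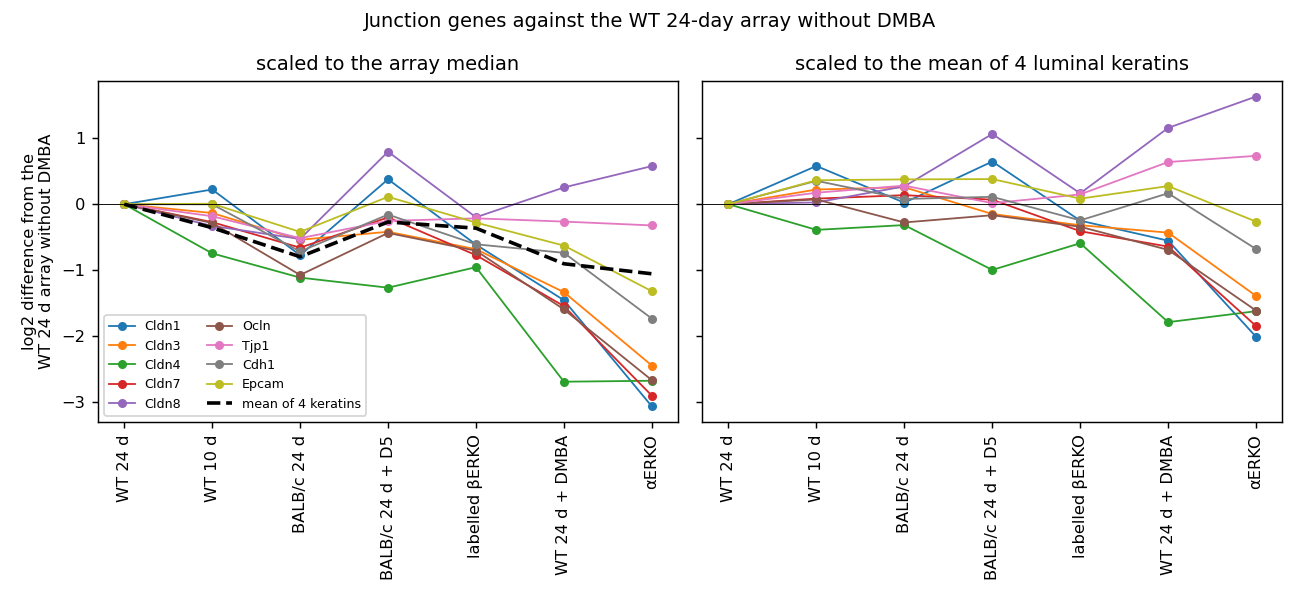
Log2 level of each junction gene relative to WT at 24 days without DMBA, which is 0 for each gene, scaled to the array median at left, with the mean of the 4 luminal keratins as a dashed line, and scaled to that mean at right; each point is 1 array, lines join the points of 1 gene and there are no error bars. At right, on αERKO the 4 claudins Cldn1, Cldn3, Cldn4 and Cldn7 and Ocln lie between -2.01 and -1.39, and on WT with DMBA Cldn4 lies at -1.79, apart from the others.

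Where the promoter sequence is in the RefSeq table, it was read, since Cldn3 and Cldn4 are neighbours that differed with DMBA, and since Epcam and Tjp1 varied over the arrays to different degrees. A window is the 250 bases before the start of transcription on the gene's strand in GRCm38.p6, written 5′ to 3′, with capitals for E-boxes (CACCTG or CAGGTG, the letters that Snail and Zeb factors bind) and for AP-1 letters (TGANTCA), searched on both strands. 7 of the 9 members had a window, which leaves Cdh1 and Cldn8, and Cldn7 and Ocln had more than 1 start. The 4 windows are Cldn4 at chr5:134946935-134947184 on the minus strand, Cldn3 at chr5:134985964-134986213 on the plus strand, Epcam at chr17:87635729-87635978 on the plus strand and Tjp1 at chr7:65371245-65371494 on the minus strand.
Cldn4: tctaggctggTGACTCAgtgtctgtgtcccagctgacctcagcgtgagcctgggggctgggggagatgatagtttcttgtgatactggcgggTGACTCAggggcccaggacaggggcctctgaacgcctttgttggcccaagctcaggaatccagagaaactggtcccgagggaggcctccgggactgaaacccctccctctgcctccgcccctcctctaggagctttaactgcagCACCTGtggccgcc
Cldn3: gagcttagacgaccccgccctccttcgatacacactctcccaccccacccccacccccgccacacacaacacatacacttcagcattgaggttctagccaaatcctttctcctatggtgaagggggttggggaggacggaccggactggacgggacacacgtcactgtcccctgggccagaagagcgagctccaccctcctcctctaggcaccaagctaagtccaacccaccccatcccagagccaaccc
Epcam: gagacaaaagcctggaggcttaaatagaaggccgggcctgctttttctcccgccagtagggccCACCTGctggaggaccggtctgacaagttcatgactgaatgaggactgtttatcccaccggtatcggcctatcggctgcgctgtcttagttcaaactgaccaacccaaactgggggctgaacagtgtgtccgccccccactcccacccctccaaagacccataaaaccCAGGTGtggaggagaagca
Tjp1: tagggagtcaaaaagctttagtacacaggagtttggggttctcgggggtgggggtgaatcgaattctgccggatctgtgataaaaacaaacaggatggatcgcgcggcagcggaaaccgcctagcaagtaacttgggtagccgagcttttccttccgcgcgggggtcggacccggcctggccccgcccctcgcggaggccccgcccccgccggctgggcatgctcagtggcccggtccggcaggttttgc
Cldn4 was the only member with AP-1 letters, found in 6.75% of the 32851 mouse windows, with copies at -240 and -158 from the start. An E-box stood in 4 of the 9 windows of these members, in Cldn4 at -14, in Epcam at -187 and -19, and at 1 start each of Cldn7 and Ocln, against 17.2% of all windows. The Cldn3 and Tjp1 windows had neither. The half-site of the estrogen response element (AGGTCA or TGACCT), in 14.0% of all windows, was in the Cldn4 window, in each Cldn7 window and at 1 start of Ocln. A match describes letters in these windows and not binding.

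The partners of these genes were taken from lists, whose counts stand against the shares of all genes over 2-fold. Those were 15.2% lower and 10.2% higher on αERKO against WT with DMBA, 7.29% and 6.62% on the array labelled βERKO, 20.2% and 11.8% between both knockout arrays, 7.79% and 11.6% with DMBA, 4.34% and 5.47% for culture time, 4.39% and 4.41% for vitamin D5, and 12.2% and 6.22% for strain. Where a spot was near background on 1 array, the measured ratio was counted, as it was for all genes, and the count at the bound is given where it differs. Of the other claudins, 14 were on the array and 9 to 12 were measured in a comparison. On αERKO against WT with DMBA 2 were over 2-fold higher and 2 lower, with a median of 0.03, against -0.999 for the 9 junction genes. The probes of these other claudins were dim, with a median level between -0.50 and -0.14 and 8 to 11 of 14 good on an array. Ratios near 0 therefore do not show that these genes were unchanged. Cldn5, the claudin of endothelium, had levels of 2.89 on αERKO, 2.52 on the array labelled βERKO and 4.52 on WT with DMBA, against 0.04 on WT at 10 days, 2.22 on WT at 24 days without DMBA, 0.22 on BALB/c and -0.65 on BALB/c with vitamin D5. It was thus highest on WT with DMBA, with a log2 ratio of 2.30 with DMBA. Cldn4 was equally low on WT with DMBA and αERKO, where Cldn5 was at 4.52 and 2.89, and a link between these levels was not tested.

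Of the tight junction partners of the claudins, 9 of 23 were over 2-fold lower and 1 higher on αERKO than on WT with DMBA, against 15.2% and 10.2% of all genes, with a median of -0.59. Pals1, a scaffold of the Crumbs polarity complex, was at least 6.52-fold lower. Marveld3, a relative of occludin, had a log2 ratio of -2.02, and F11r (JAM-A), an adhesion molecule of the tight junction, of -1.89. Jam3, which endothelial and other cells also make, was higher by 1.39. With DMBA, 7 of 23 were over 2-fold lower and 1 higher, against 7.79% and 11.6% of all genes, with a median of -0.49. Crb3, the epithelial Crumbs protein, had a ratio of -2.10, the tricellular junction proteins Marveld2 and Lsr had -1.56 and -1.24, and Jam3 was the one that was higher, by 2.11. On the array labelled βERKO, 5 of 24 were over 2-fold higher than on WT with DMBA and 0 lower. αERKO against the array labelled βERKO gave 16 of 24 lower and 1 higher, against 20.2% and 11.8% of all genes, with a median of -1.18. The counts were 3 lower and 0 higher of 25 for culture time (2 lower at the bound), 2 lower and 1 higher of 25 for vitamin D5 (0 higher at the bound) and 2 lower and 3 higher of 24 for strain, beside the shares of all genes given above.

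Partners of Cdh1 in the adherens junction were over 2-fold lower in 6 of 11 cases on αERKO and higher in 1, against 15.2% and 10.2% of all genes, with a median of -1.17. At the bound 5 were lower and the median was -0.72. Ctnnb1 (β-catenin), which binds the tail of Cdh1, and Actn4, an actin cross-linker, each had a log2 ratio of -1.71. With DMBA, 0 of 11 passed 2-fold in either direction, with a median of -0.32, beside the ratio of -0.74 for Cdh1 itself. Against the array labelled βERKO, αERKO was lower in 6 of 11 and higher in 0. For the array labelled βERKO against WT with DMBA and for culture time 0 of 11 passed 2-fold, for vitamin D5 1 was higher (0 at the bound), and for strain 2 were lower.

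Desmosome genes, which hold keratin filaments to the membrane, were lower in 4 of 11 cases on αERKO, 3 at the bound, and higher in 0, against 15.2% of all genes lower. Perp, a desmosomal membrane protein, had levels of 1.36 on αERKO and of 4.54, 4.58, 5.36, 5.30, 4.72 and 5.07 on the other arrays in the order above, so that αERKO alone was low. With DMBA 3 of 12 were lower, 2 at the bound, and 0 higher, against 7.79% of all genes lower, Dsc2, a desmosomal cadherin, at -1.59. αERKO against the array labelled βERKO had 5 of 11 lower, against 20.2% of all genes. With vitamin D5, 2 of 13 had a measured ratio over 2-fold, but both were near background without it, and at the bound 1 passed, Dsc2 at least 2.07-fold higher, while Dsc3 was at least 1.64-fold higher.

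The Epcam list holds partners at the cell surface, among them the membrane proteases St14 (matriptase) and Prss8 and the inhibitor Spint1. Of its 5 genes, 3 were over 2-fold lower on αERKO, 4 with DMBA and 4 on αERKO against the array labelled βERKO, and 0 were higher in any of these, where 15.2%, 7.79% and 20.2% of all genes were lower. St14 and Spint1, its inhibitor, had log2 ratios of -1.79 and -1.45 on αERKO against WT with DMBA, and Prss8 had -1.17. With DMBA, Spint1 had a ratio of -1.29 and Prss8 of -1.05.

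Transcription and splicing factors that maintain epithelial identity were lower in 4 of 9 cases on αERKO and in 3 of 9 with DMBA, and higher in 0, where 15.2% and 7.79% of all genes were lower. Klf5, a factor of ductal and alveolar epithelium, had levels of 1.75 on αERKO, 4.38 on the array labelled βERKO, 2.55 on WT with DMBA, 5.06 on WT at 10 days, 5.04 on WT at 24 days, 4.38 on BALB/c and 5.05 on BALB/c with vitamin D5. Grhl2, known to activate Cdh1 and Cldn4 in other epithelia, had levels of 1.82, 3.84, 3.52, 4.65, 4.37, 4.34 and 4.55 in that order. Elf5, the factor of the alveolar lineage, had a log2 ratio of -2.81 on αERKO against WT with DMBA. For all 3 factors αERKO was the lowest array and WT with DMBA the next, as they were for Grhl3, Ovol2 and Elf3. Other factors of the list had another order. Ovol1 was lower on WT with DMBA, at 1.31, than on αERKO, at 1.66. Grhl1 was lower on the array labelled βERKO, at 1.93, than on WT with DMBA, at 2.18.

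Esrp1, a splicing factor of epithelial cells, had a different pattern. Its level was 0.83 on αERKO and 1.30 on the array labelled βERKO, against 5.74 to 6.91 on the 5 wild-type arrays. The gap between the higher knockout array and the lowest wild-type array was 21.8-fold, which ranked 4 among 13244 genes put in order of that gap, of which 54 had a gap over 2-fold. The value comes from 1 probe, and the knockout arrays are also the ones of C57BL6/129SV background, so genotype and strain cannot be told apart. On the array labelled βERKO the junction genes were close to the wild-type arrays while Esrp1 was low. The gene was singled out after its values were seen.

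Repressors of Cdh1 were higher with DMBA in 3 of 5 cases and lower in 0, where 11.6% of all genes were higher. Zeb1 had levels of 1.86 on αERKO, 1.40 on the array labelled βERKO, 3.79 on WT with DMBA, 2.06 on WT at 10 days, 2.04 on WT at 24 days, 2.12 on BALB/c and 1.34 on BALB/c with vitamin D5, so that WT with DMBA was high and the rest lay close together. Twist1 had a log2 ratio of 1.92 and Snai2 of 1.36 with DMBA, where Cdh1 had -0.74, but Snai2 at 10 days without DMBA, at 2.40, was close to its level of 2.48 with DMBA. All 3 factors are also made by stromal cells, whose markers were higher on the same array. On αERKO against WT with DMBA, 1 of 5 was higher, Twist1 by 1.04, and 1 lower, Zeb1 by a ratio of -1.93.

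**Figure D4:**
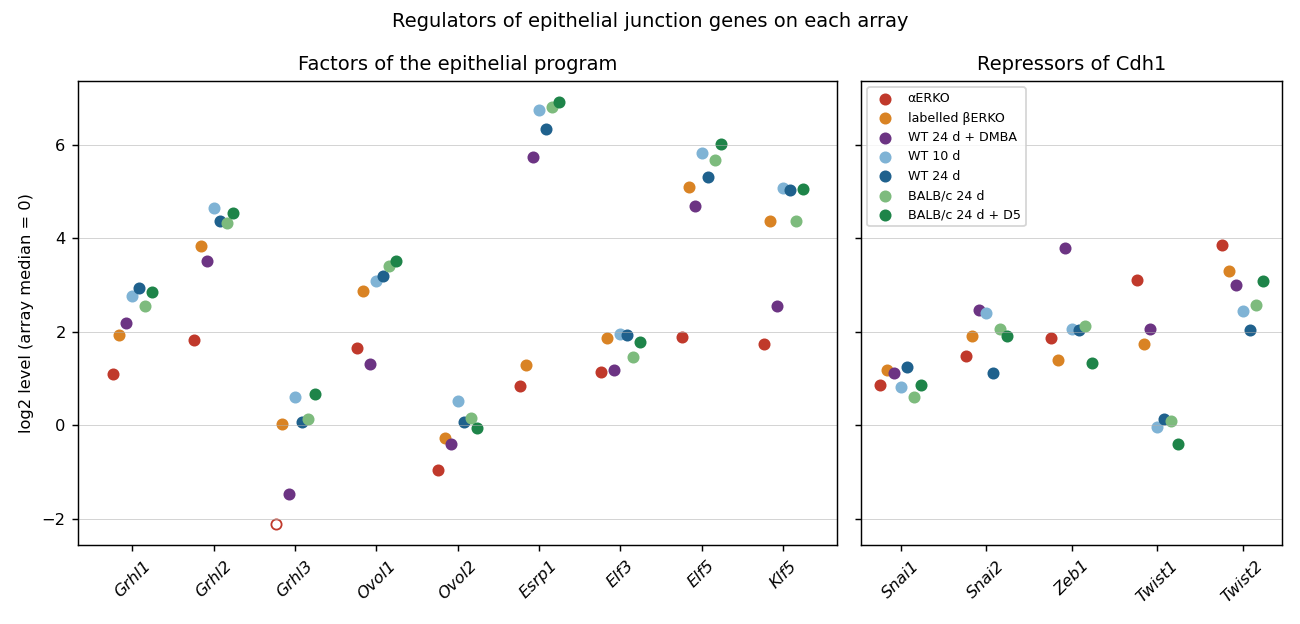
Level on each of the 7 arrays, as log2 of intensity over the array's median, of factors of epithelial identity and of repressors of Cdh1; each point is 1 array, open where the spot was not called good, and there are no error bars. Esrp1 lies at 0.83 and 1.30 on the knockout arrays and between 5.74 and 6.91 on the others, and Zeb1 is highest, at 3.79, on WT with DMBA.

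Levels of the marker lists per array are given beside the junction genes. The median level of 7 stromal markers was 4.47 on αERKO, 2.01 on the array labelled βERKO and 3.59 on WT with DMBA, and -0.12, -0.21, 0.01 and 1.39 on WT at 10 days, WT at 24 days, BALB/c and BALB/c with vitamin D5. The median of 8 skeletal muscle markers was 8.03 on αERKO, 1.82 on the array labelled βERKO and between -0.30 and 0.37 on the other 5. The 6 adipocyte markers had a median of 9.07 on αERKO and 8.51 on WT with DMBA, and between 2.92 and 7.41 elsewhere. Stromal and adipocyte markers were thus highest on αERKO and WT with DMBA, the lowest arrays for Cldn1, Cldn3, Cldn4, Cldn7, Ocln, Cdh1 and Epcam. BALB/c was the lowest for Cldn8 and Tjp1. The adipocyte median was 6.89 on WT at 24 days without DMBA, the highest array for 6 of the junction genes. It was lower, at 4.65, 4.20 and 2.92, on WT at 10 days, BALB/c and BALB/c with vitamin D5. A link between marker and junction levels was not tested. The summed linear level of the 4 luminal keratins, in multiples of the array median, was 420.8 on αERKO and 368.4 on WT with DMBA, against 547.9 to 715.1 on the others, and all 4 keratins were good on every array, so that luminal epithelium was present in each.

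**Figure D5:**
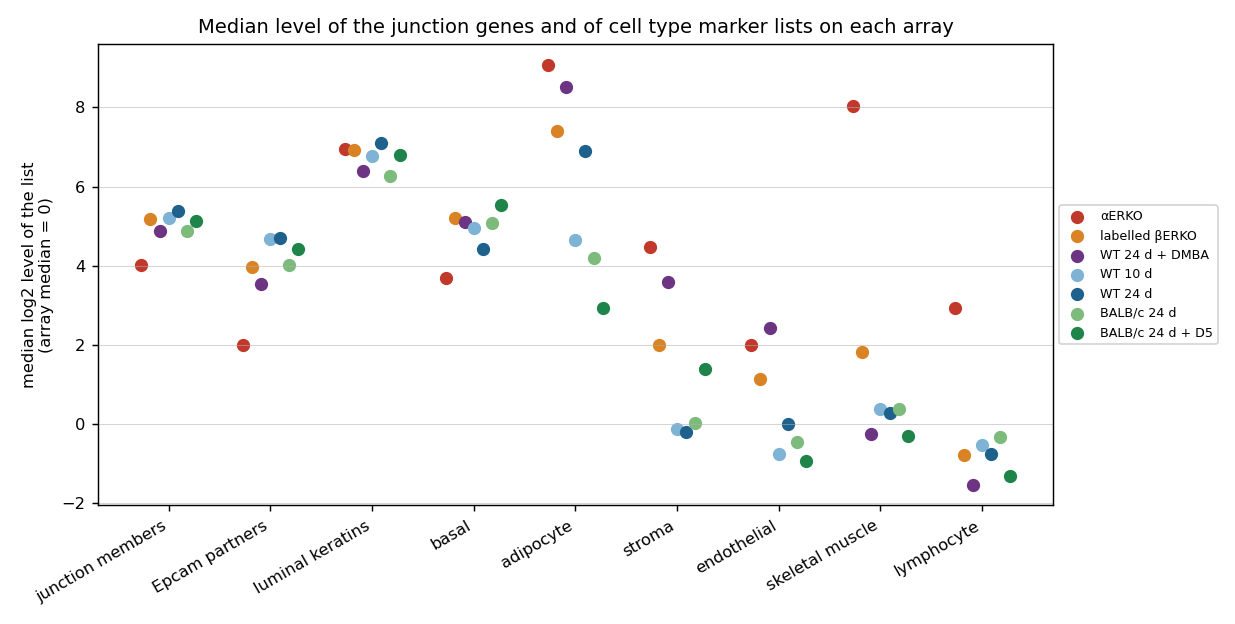
Median level of each marker list on each of the 7 arrays, as log2 of intensity over the array's median, beside the median of the 9 junction genes; each point is a median over the genes of 1 list on 1 array. Skeletal muscle reaches 8.03 on αERKO only, stroma 4.47 on αERKO and 3.59 on WT with DMBA, and the junction genes span 4.02 to 5.38.

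Genes whose levels varied most like those of the members were ranked by Pearson correlation over the 7 arrays among 9331 genes good on all arrays. Closest to the mean of the 7 members good on all arrays were Xrn2, Hnrnpab and Tmem209, each with a correlation of 0.996, and 12.6% of the ranked genes exceeded 0.9, so a high value was common. Closest to Cldn7 were Cxadr, an adhesion molecule of epithelial tight junctions, and Rab25, a GTPase of epithelial apical traffic, with levels for Rab25 of 3.17 on αERKO, 4.54 on WT with DMBA and 6.22 on WT at 24 days. Closest to Cldn4 were Ttc19, Ctsg and Zfp51, and closest to Tjp1 was Rufy2, at 0.99. For Tjp1 0.975% of the ranked genes exceeded 0.9 and for Cldn4 5.38%, against 11.5% for Cldn7.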

How the data were processed

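RNA of 7 groups of cultured mammary glands, 1 array each, was hybridized by the authors to 1-colour CodeLink Mouse Whole Genome arrays, scanned, and quantified with CodeLink Expression Analysis software. Deposited with a quality call for each spot, the intensity is the mean over the spot after subtraction of the median background around it. A normalized intensity deposited by the authors was used as an alternative. The deposited series matrix was not used, since its rows carry no probe names.

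Intensities were divided by the median over the 34967 gene probes of the array, without the 320 negative and 300 positive control spots, log2 was taken, and an intensity of 0 or less was set to the array's smallest positive one beforehand. Probes were named through RefSeq's mouse table (assembly GRCm38.p6), which matched 14763 of 15553 probes with a RefSeq accession. A gene is its brightest probe. In a comparison, genes good on at least 1 of its 2 arrays were measured, and 2-fold, the study's threshold, was used. Where 1 spot of a ratio was near background, "at least" gives a bound: that spot was set to the lowest good value of its array, or kept if higher. With 1 array a group no test was run, and the number of arrays limits the precision.

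The members and lists were chosen with earlier results of these data known. Named list genes are those with the largest ratios over 2-fold in each list, 2 of which are not reported here, and the genes most like a member are the first 10 for the mean and 3 for a member. Alternatives were the 75th percentile, quantile and cyclic loess scaling, normexp with an offset of 50, the deposited normalized intensity, a floor, good calls on both arrays, a mean over probes, and thresholds of 1.5-fold and 3-fold. Scaling to luminal keratins and WT at 24 days without DMBA as control were added after seeing the data. Counting was tested on simulated data. Python 3.11.15, pandas 2.3.3, R 4.3.3 and limma 3.58.1 were used.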

Additional observations from a re-analysis of the deposited data

How the results depend on the processing

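Of 21 member ratios over 2-fold, 147 alternative values were computed. Of these, 140 moved by less than the SD between probes of the same gene, 7 by more, and 0 changed sign. Each member has 1 probe, so a mean over probes could not move its ratio. A floor could not move the ratio of bright spots either. The count of 140 is therefore not a count of checks that could each have failed. Counts and medians over the 9 members moved as follows. For αERKO over WT with DMBA, 2 members were over 2-fold with 75th percentile scaling, with cyclic loess and with scaling to luminal keratins, 1 was over 3-fold, and against WT at 24 days without DMBA it was 7 with a median of -2.45. For the array labelled βERKO over WT with DMBA, 5 were over 1.5-fold, the median was 0.11 with keratin scaling, and against WT at 24 days without DMBA it was -0.61 with 0 over 2-fold. αERKO over the array labelled βERKO had a median of -1.03 with keratin scaling. DMBA over no DMBA had a median of -0.98 with cyclic loess and of -0.43 with keratin scaling, where 2 members were over 2-fold, 1 each way. With the array median as scaling, 2 members were over 3-fold in that comparison. For 24 over 10 days, 1 was over 1.5-fold and the median turned to -0.17 with keratin scaling. For vitamin D5, 1 was over 2-fold with normexp and with good calls on both arrays, 0 over 3-fold, and 0 with keratin scaling, where the median was 0.0052. For BALB/c over WT, 0 were over 2-fold with 75th percentile, quantile, cyclic loess and keratin scaling, the last turning the median to 0.14, 1 with normexp, 5 over 1.5-fold and 0 over 3-fold. The causes were not tested. With normexp, Cldn8 with vitamin D5 went from a log2 ratio of 1.32 to 0.53. Cldn1 over 2-fold lower on αERKO against WT with DMBA went from -1.61 to -0.97 with normexp. No paired analysis was possible because each group has 1 array.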
